A study of Mus musculus with 6 samples.

Results

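The genes described here are 9 interferon-inducible GTPases of the mouse: Iigp1, Irgm1, Irgm2 and Igtp of the immunity-related GTPase (IRG) family, and Gbp2, Gbp3, Gbp6, Gbp7 and Gbp9 of the guanylate-binding proteins (GBPs). They were taken by name, each through the probe set that carries its symbol alone and, where there were several, the one with the highest mean over the 6 arrays. Of the 9 genes, 5 had such a probe set among the 19937 genes measured this way (Iigp1, Irgm1, Gbp3, Gbp7 and Gbp9). The other 4 were found only on probe sets shared with related genes: Gbp2 with Gbp2b, Irgm2 and Igtp together on 1 probe set, and Gbp6 on a probe set of 6 symbols (Gbp4, Gbp6, Gbp8, Gbp9, Gbp10 and Gbp11). This gave 8 probe sets for the 9 genes.

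Expression was measured on Affymetrix mouse whole-transcript arrays in organoids, small 3-dimensional cultures grown from mammary epithelium of age-matched female FVB mice. The DOX group (n = 3 arrays) was ErbB3 DOX-KO organoids kept for 14 days in growth factor-reduced Matrigel with 5 µM doxycycline, and the control group (n = 3 arrays) was ErbB3 DOX-KO organoids kept the same way without it. Both groups carried the same inducible-knockout genotype, so the comparison asks what differs when the agent meant to remove the receptor ErbB3 is added. The promoter that drives the inducible system and the ages of the mice are not given in the sources used here, and since no organoids without the knockout alleles are among these arrays, effects of doxycycline itself and of the induced allele cannot be told apart.

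Both families are switched on by interferons, mainly interferon gamma. That cytokine acts through its receptor and the kinases JAK1 and JAK2, and genes that answer it often carry gamma activated sites (GAS). Interferon stimulated response elements (ISRE) are bound by IRF1 and by complexes that hold IRF9. The effector IRG proteins and the GBPs are drawn to the vacuoles in which microbes such as Toxoplasma gondii live and break them open, and the regulatory IRG proteins Irgm1, Irgm2 and Igtp hold the effectors inactive on the cell's own membranes. Epithelial cells as well as macrophages can make them in response to interferon.

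The arrays themselves set limits on what follows. Erbb3, the gene the inducible allele is meant to remove, had log2 values of 10.36, 9.31 and 9.82 on DOX arrays 1, 2 and 3, against 9.78, 9.71 and 9.69 on the control arrays. It differed by 0.10 (adjusted p = 0.845, limma), or by 0.37 without DOX replicate 2 (adjusted p = 0.105), which goes against the label of an induced knockout, although a probe set outside a deleted part would not show a deletion. The groups below are therefore the arrays labelled DOX and control, and every direction rests on those labels. DOX replicate 2 stood apart: it correlated with the other arrays at 0.816 to 0.865 over all genes, while the other 5 correlated at 0.963 or more with each other. Its values were compressed, with a slope of 0.548 on the control means, against 0.936 to 0.981 for the other DOX arrays, so the members, the lists and the named genes are given with and without it. Epithelial markers Epcam, Cdh1, Krt8 and Krt18 had log2 values of 9.42 or more on every array, whereas the basal keratins Krt5 and Krt14 had values of 6.77 or less.

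The 8 GTPase probe sets were lower on every DOX array than on every control array. Among the 5 genes with a probe set of their own, 4 fell in the limma fit at an adjusted p under 0.05 and none rose, where 2.26% of all 19937 genes fell and 0.12% rose. The median of the 5 differences was −2.84 on the log2 scale, against 0.02 for all genes. Without DOX replicate 2 all 5 fell, where 14.3% of all genes did, and the median was −2.41. Complete separation of the groups in this direction held for 5 of 5 genes and for 20.3% of all genes. This share, and the 16% given below for probe sets, cover all levels. At the control levels of the GTPases, the median difference from control on DOX replicate 2 was −1.59 to −0.75. The share of separated groups among genes of those levels was not counted. Of the 3 shared probe sets, 2 fell with all arrays and 3 fell without DOX replicate 2, against 1.19% and 7.58% of the 34760 probe sets, and 16% of all probe sets had every DOX array below every control array. These counts depend on single arrays: without any 1 control array Irgm1 (adjusted p of 0.226 to 0.246), Gbp3 (0.0678 to 0.0787) and Gbp7 (0.0533 to 0.0772) no longer passed in the limma fit, nor did the 2 shared probe sets, and Irgm1 also failed without DOX replicate 1 (0.0666) or 3 (0.101), while Iigp1 passed each time. In these bulk samples, fewer cells of a type that makes these RNAs and less RNA per cell cannot be told apart.

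**Figure D1:**
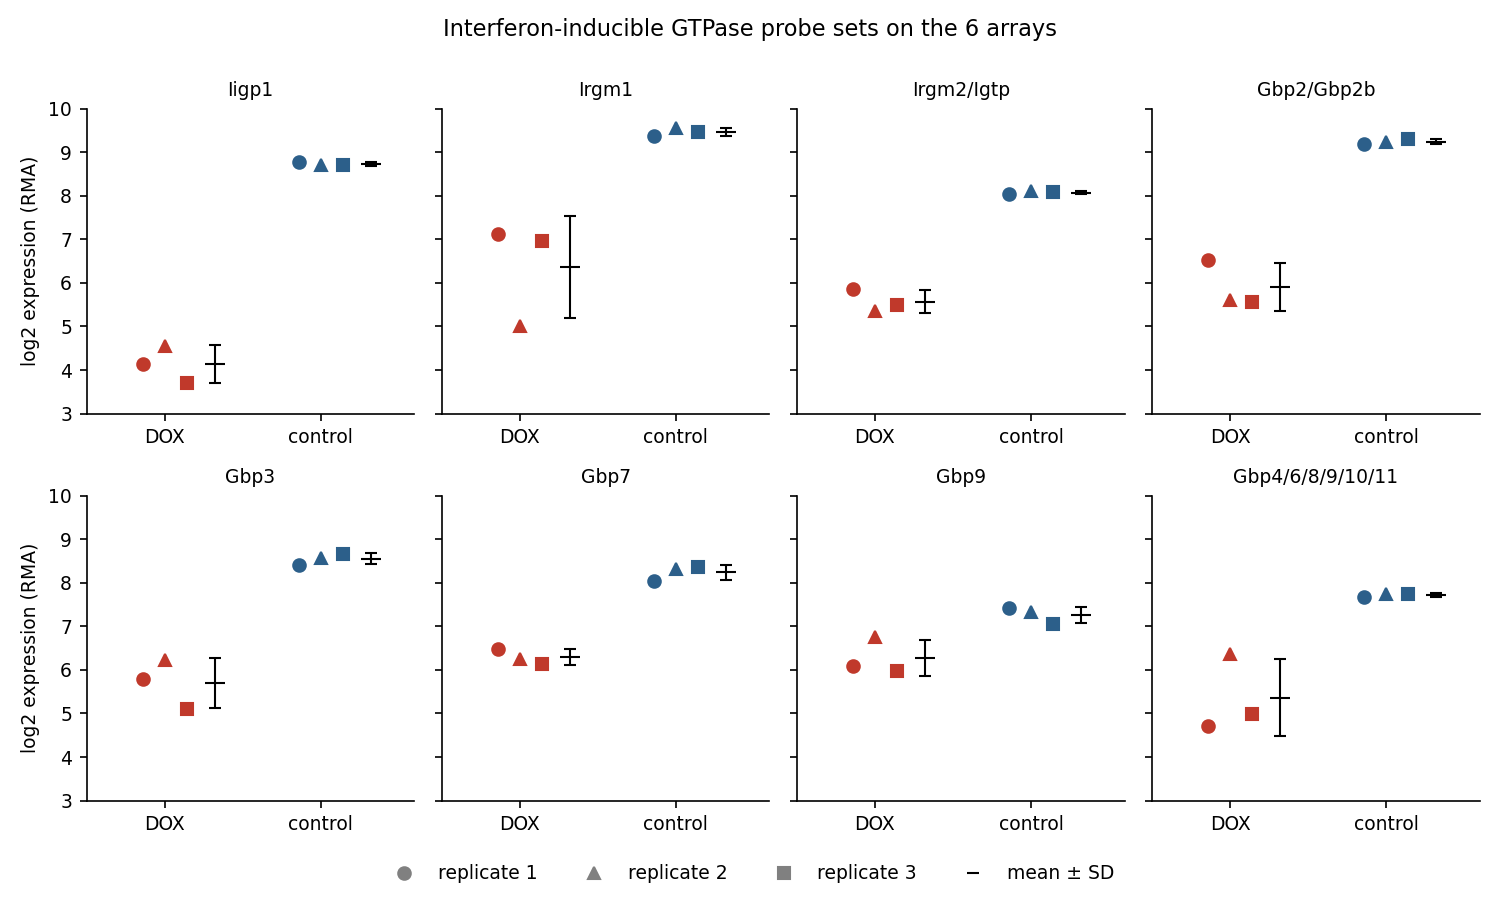
Log2 expression of the 8 GTPase probe sets on each array, with DOX arrays (red) left of control arrays (blue), 1 marker shape for each replicate number and the mean ± SD beside them (n = 3 each). In every panel the 3 DOX arrays lie below the 3 control arrays. The gap is widest for Iigp1 (4.13) and narrowest for Gbp9 (0.31).

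Iigp1, an effector IRG protein that collects on Toxoplasma vacuoles in mouse cells, differed most. Its log2 values were 4.15, 4.56 and 3.70 on the DOX arrays, against 8.77, 8.70 and 8.69 on the control arrays. The control arrays lay within 0.1 of each other and all DOX arrays were more than 4 log2 units below them. The means were 4.14 ± 0.43 in DOX and 8.72 ± 0.04 in control (SD, n = 3 each). The difference of −4.59 (SE 0.25, 95% interval −5.19 to −3.99, 24.0-fold lower, limma adjusted p = 0.00155) placed it 9th among all genes by size of fall. The DOX values were at the low end of the scale, below the lower quartile of all probe sets on DOX arrays 1, 2 and 3 (4.20, 4.83 and 4.29). The values carry no detection call, so Iigp1 was not shown to be above background there and the fold is that of the values as they stand. Without DOX replicate 2 the difference was −4.80 (27.8-fold lower, adjusted p = 6.498e-09).

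Irgm1, a regulatory IRG protein that mice need to survive many intracellular infections, had log2 values of 7.13, 5.01 and 6.96 on the DOX arrays, against 9.36, 9.54 and 9.46 on the control arrays. DOX replicate 2 was the lowest array by about 2 log2 units, and it was this array that widened the DOX spread (6.37 ± 1.18 in DOX and 9.46 ± 0.09 in control, SD). The difference was −3.09 (SE 0.55, 95% interval −4.41 to −1.76, 8.50-fold lower, limma adjusted p = 0.0457). Without DOX replicate 2 it was smaller but more precise, at −2.41 (5.32-fold lower, adjusted p = 1.467e-07).

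The probe set shared by Irgm2 and Igtp, both regulatory IRG genes, had log2 values of 5.87, 5.35 and 5.49 on the DOX arrays, against 8.03, 8.10 and 8.09 on the control arrays. The 3 DOX arrays kept close together here, DOX replicate 2 included. The means were 5.57 ± 0.27 in DOX and 8.07 ± 0.03 in control (SD, n = 3 each), a difference of −2.50 (SE 0.20, 95% interval −2.99 to −2.01, 5.67-fold lower, limma adjusted p = 0.00612 over all probe sets). Without DOX replicate 2 it was −2.39 (adjusted p = 0.000608). Which of the 2 genes gave this signal cannot be told apart.

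The promoters of the regulatory IRG genes are shown because they carry the letters that interferon-activated factors read. The windows are the 150 bases before each RefSeq gene start in mouse build GRCm38.p6, 5′ to 3′ on the gene's strand: chr11:48871421-48871570 (minus strand) for Irgm1, chr11:58214827-58214976 (plus strand) for Irgm2 and chr11:58199406-58199555 (plus strand) for Igtp. Capitals mark matches on either strand to the ISRE letters GAAANNGAAA (TTTCNNTTTC on the other strand) or the GAS letters TTCNNNGAA, where N is any base.
Irgm1: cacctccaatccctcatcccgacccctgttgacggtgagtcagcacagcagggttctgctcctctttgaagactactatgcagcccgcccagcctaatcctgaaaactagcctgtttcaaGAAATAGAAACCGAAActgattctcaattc
Irgm2: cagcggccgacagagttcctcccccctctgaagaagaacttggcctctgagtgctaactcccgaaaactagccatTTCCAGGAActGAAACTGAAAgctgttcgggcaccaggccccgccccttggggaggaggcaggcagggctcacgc
Igtp: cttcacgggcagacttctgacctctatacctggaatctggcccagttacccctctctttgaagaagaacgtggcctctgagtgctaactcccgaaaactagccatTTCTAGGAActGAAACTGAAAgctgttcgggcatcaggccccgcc
In Irgm1, 2 ISRE matches overlap and end 15 bases before the gene start. In Irgm2 and Igtp a GAS match is followed, after a gap of 2 bases, by an ISRE match. This arrangement (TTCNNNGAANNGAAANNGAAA), which was noticed in these windows and then counted, occurred in 5 of 32851 RefSeq windows (0.0152%), those of Irgm2, Igtp, Tgtp1, Tgtp2 and Gm12185, all on the GTPase lists. The windows of Irgm2 and Igtp were 68.1% identical over 270 bases, so their motifs are not separate examples, whereas each was 35.1% or less identical to that of Irgm1. The windows of Tgtp1, Tgtp2 and Gm12185 were not compared this way, so the 5 windows were not shown to be separate examples.

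Gbp2, a GBP that mice need to control Toxoplasma, was read by a probe set it shares with Gbp2b. The log2 values were 6.53, 5.61 and 5.56 on the DOX arrays, against 9.18, 9.24 and 9.29 on the control arrays. DOX replicate 1 was the highest of the DOX arrays and still 2.65 below the lowest control array. The means were 5.90 ± 0.54 in DOX and 9.24 ± 0.05 in control (SD), and the difference was −3.34 (SE 0.30, 95% interval −4.05 to −2.62, 10.1-fold lower, limma adjusted p = 0.00758 over all probe sets), or −3.19 without DOX replicate 2 (adjusted p = 0.00175). Gbp2b also had a probe set of its own, with 4.54, 5.20 and 4.69 on the DOX arrays against 5.47, 5.15 and 5.13 on the control arrays, where the groups overlapped and the test was not passed (−0.44, adjusted p = 0.443). Only DOX replicate 2 reached the control range, and Gbp2b passed once it was left out (−0.63, limma adjusted p = 0.00497).

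Gbp3, in the same chromosome 3 cluster of GBPs as Gbp2, had log2 values of 5.79, 6.23 and 5.09 on the DOX arrays, against 8.41, 8.57 and 8.66 on the control arrays. DOX replicate 2 was here the highest of the DOX arrays, the reverse of its place for Irgm1. The difference was −2.84 (SE 0.31, 95% interval −3.58 to −2.11, 7.17-fold lower, limma adjusted p = 0.0081), and −3.11 without DOX replicate 2 (8.60-fold lower, adjusted p = 5.024e-07).

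Gbp7, a GBP that in mouse macrophages helps deliver oxidase and autophagy proteins to bacteria, had log2 values of 6.49, 6.26 and 6.12 on the DOX arrays, against 8.04, 8.30 and 8.37 on the control arrays. The spread was about equal in both groups (6.29 ± 0.18 in DOX and 8.24 ± 0.17 in control, SD). The difference was −1.95 (SE 0.19, 95% interval −2.41 to −1.48, 3.85-fold lower, limma adjusted p = 0.00616), and leaving out DOX replicate 2 barely moved it (−1.93, adjusted p = 3.789e-06).

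The windows of these chromosome 3 genes in GRCm38.p6 are chr3:142620513-142620662 for Gbp2, chr3:142559894-142560043 for Gbp3 and chr3:142530186-142530335 for Gbp7, all on the plus strand and marked as above.
Gbp2: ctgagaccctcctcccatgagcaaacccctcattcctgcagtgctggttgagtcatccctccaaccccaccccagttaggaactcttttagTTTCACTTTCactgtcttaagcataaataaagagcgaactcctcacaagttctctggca
Gbp3: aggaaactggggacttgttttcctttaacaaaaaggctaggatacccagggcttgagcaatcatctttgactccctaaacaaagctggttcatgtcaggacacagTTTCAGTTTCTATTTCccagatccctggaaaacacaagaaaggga
Gbp7: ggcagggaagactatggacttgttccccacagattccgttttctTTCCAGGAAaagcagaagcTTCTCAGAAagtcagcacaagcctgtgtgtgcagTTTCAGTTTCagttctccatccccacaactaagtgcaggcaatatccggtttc
Each holds the ISRE letters as the complement strand spells them, 1 match in Gbp2, 2 overlapping matches in Gbp3 and 1 in Gbp7. Gbp7 also holds 2 GAS matches further from the start. Gbp3 has a second RefSeq start whose window held neither motif.

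Gbp9, a member of the chromosome 5 cluster of GBPs, differed least. Its log2 values were 6.10, 6.75 and 5.96 on the DOX arrays, against 7.41, 7.34 and 7.06 on the control arrays, and DOX replicate 2 lay closest to the controls. The groups were separated by 0.31. The difference of −0.998 (SE 0.26, 95% interval −1.62 to −0.38, 2.0-fold lower) did not pass with all arrays (limma adjusted p = 0.145), and passed without DOX replicate 2 (−1.24, 2.36-fold lower, adjusted p = 5.31e-05).

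Gbp6, also of the chromosome 5 cluster, could be read only through the probe set of 6 symbols, which also names Gbp9. Its log2 values were 4.72, 6.37 and 4.99 on the DOX arrays, against 7.67, 7.74 and 7.75 on the control arrays. DOX replicates 1 and 3 were nearly 3 log2 units below the controls and DOX replicate 2 was the array nearest to them. The difference was −2.36 (SE 0.44, 95% interval −3.41 to −1.31) and missed the threshold with all arrays (limma adjusted p = 0.0692), while without DOX replicate 2 it was −2.86 (adjusted p = 0.000278).

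**Figure D2:**
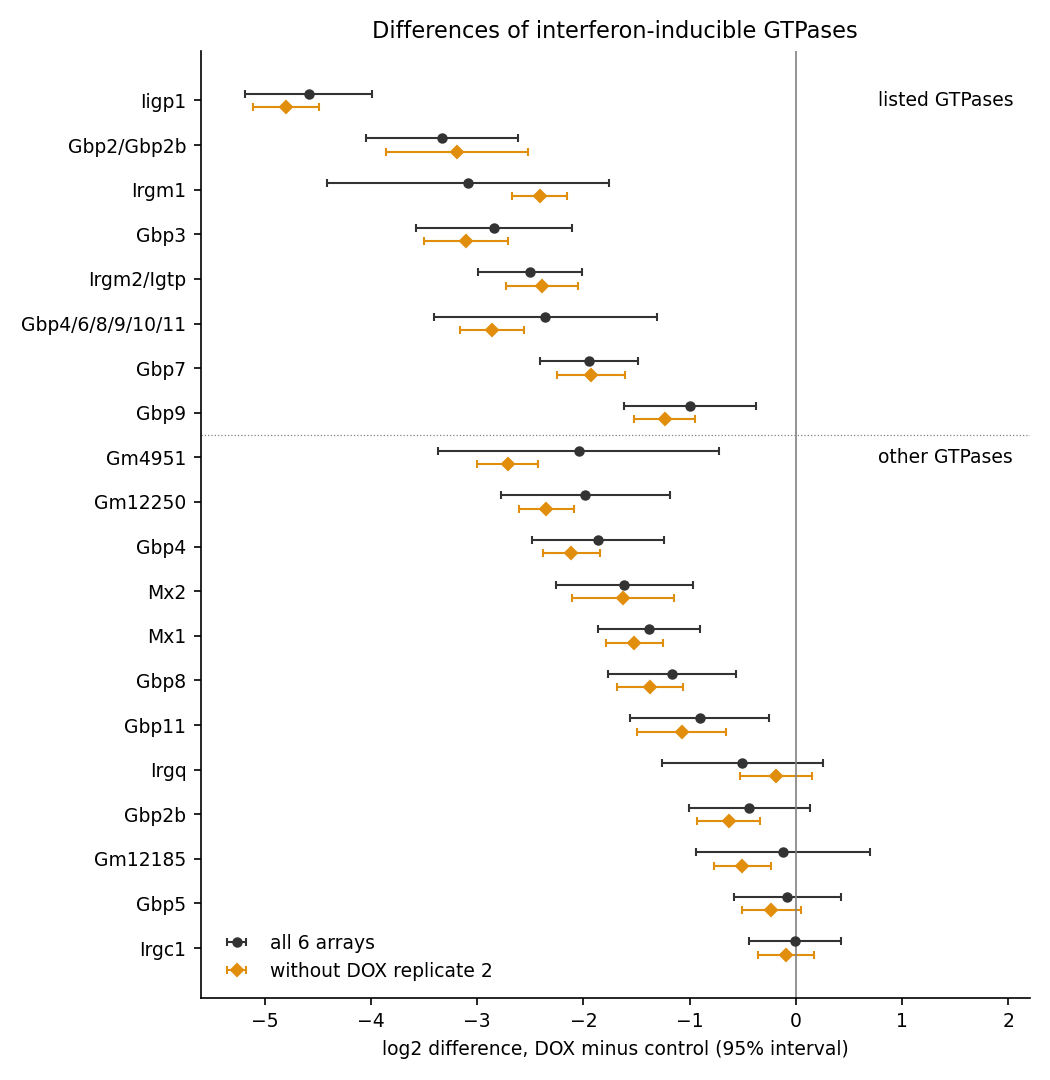
Log2 difference, DOX minus control, with its 95% interval for the 8 listed GTPase probe sets and for the other GTPases with their own probe set, from the fit of all 6 arrays (circles) and without DOX replicate 2 (diamonds). The listed GTPases run between −4.59 and −0.998 with all arrays, and the intervals of Iigp1 and Gbp9 do not overlap. Gbp5, Irgc1 and Gm12185 lie at −0.13 or closer to 0 with all arrays.

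The size of the fall varied among the 5 genes with their own probe set from 24.0-fold for Iigp1 to 2.0-fold for Gbp9. The 95% intervals of Irgm1 (−4.41 to −1.76) and Gbp3 (−3.58 to −2.11) overlapped. Without DOX replicate 2 the order of these genes was turned round, so it is not settled. No test between genes was run, and the intervals of single genes do not stand in for one. The interval of Iigp1 lay below those of Gbp3, Gbp7 and Gbp9. These are differences within each probe set, since levels of different probe sets are not on a common scale.

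Because DOX replicate 2 had compressed values, each gene was also set against genes of like control level on that array. The 19937 genes were cut into 10 steps by mean control level, and the median difference from control of the step was read for each DOX array. On DOX replicates 1 and 3 these medians lay between −0.12 and 0.04 for the steps that hold the GTPases, while on DOX replicate 2 they lay between −1.59 and −0.75. On that array Iigp1 differed from the control mean by −4.16 against a step median of −1.36, and Irgm1 by −4.44 against −1.59. The shared probe sets of Gbp2 (−3.62 against −1.59) and of Irgm2 and Igtp (−2.73 against −1.06) were also well below their steps. Gbp3 (−2.32 against −1.36) and Gbp7 (−1.98 against −1.36) were closer to theirs, and the probe set with Gbp6 was close to its step (−1.35 against −1.06). Gbp9 was the exception, with −0.52 against −0.75, so on DOX replicate 2 it was less far below the controls than most genes of its level.

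**Figure D3:**
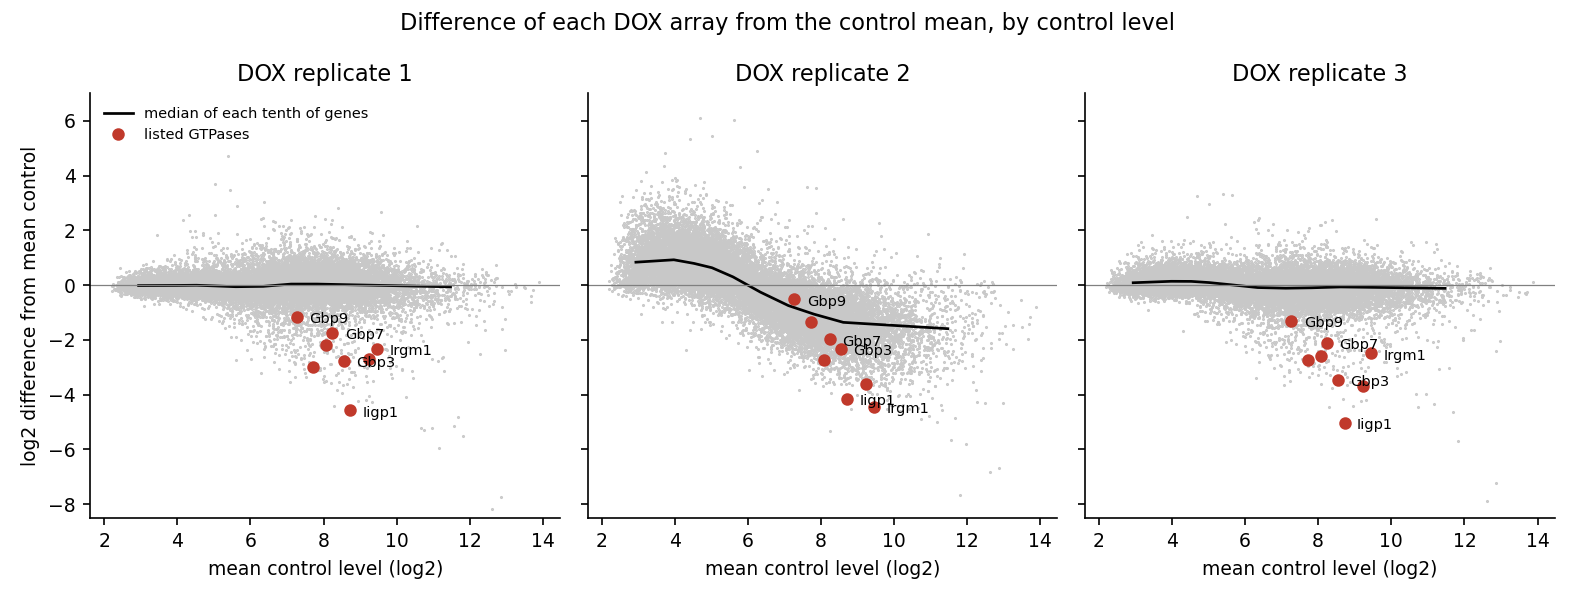
Difference of each gene from its mean control value (log2) on DOX replicates 1, 2 and 3, plotted against the mean control level, with the median of each of 10 level steps as a line and the 8 listed GTPase probe sets as red points. On DOX replicate 2 the line slopes from 0.84 for the lowest genes to −1.59 for the highest, and Gbp9 lies just above it. On the other 2 arrays the line stays between −0.12 and 0.14 and all 8 points lie below it.

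Promoter windows were given for 6 of the 9 genes (Irgm1, Irgm2, Igtp, Gbp2, Gbp3 and Gbp7). Over the 300 bases from 250 before to 50 after the start, the ISRE letters stood in 6 of 6 genes (100%), against 1079 of 27025 mouse genes with a window (3.99%). The GAS letters stood in 3 of 6 (50%), against 9.55% of all genes. Among the other interferon-inducible GTPases with a window, 7 of 9 held the ISRE letters and 5 of 9 the GAS letters, and among the antiviral genes 9 of 16 held the ISRE letters. No GAS match overlapped an ISRE match in these GTPase windows. A match is a description of the letters and shows no binding, and the absence of one covers only this window.

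**Figure D4:**
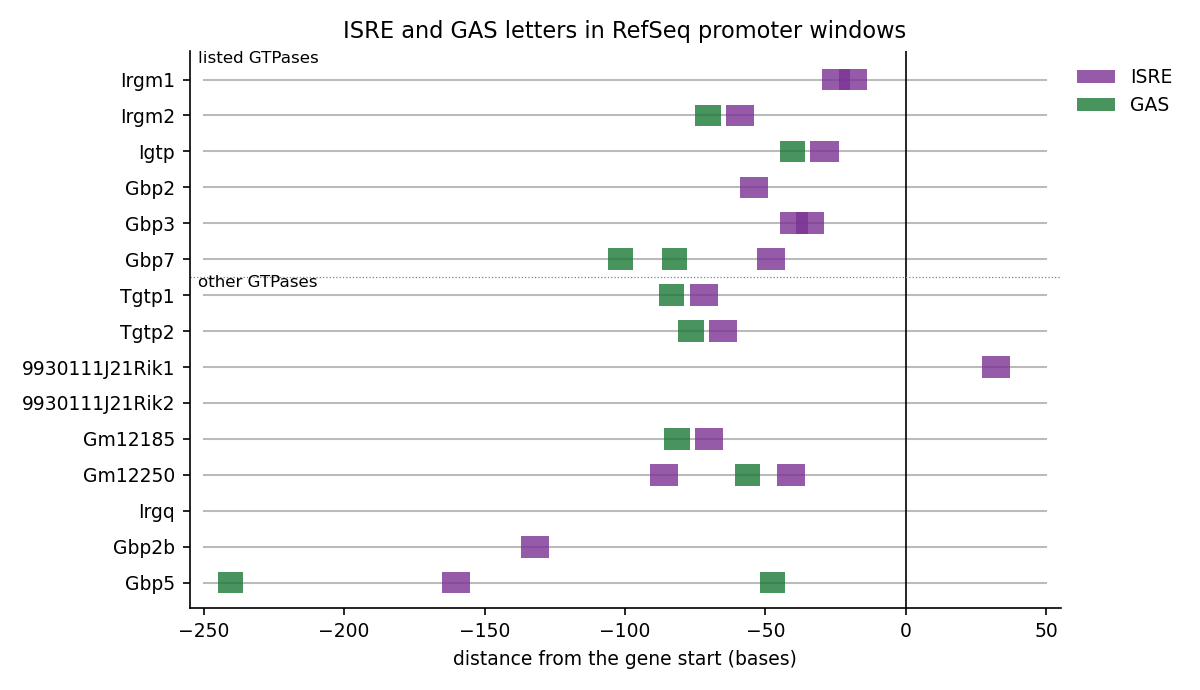
Positions of ISRE (purple) and GAS (green) matches, in bases from the gene start at 0, in the RefSeq windows of 6 listed GTPases and of 9 other GTPases (first window of each gene). In all 6 listed genes an ISRE match lies within the 64 bases before the start, and Irgm2, Igtp, Tgtp1, Tgtp2 and Gm12185 share a GAS match just upstream of it.

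Other GTPases that interferons induce, or that belong to the same families, were measured on probe sets of their own for 12 of 20 listed genes. Of these 4 (33.3%) fell, none rose and 8 did not pass with all arrays (median −1.04), where 2.26% of all genes fell. Without DOX replicate 2, 9 (75%) fell (median −1.23), where 14.3% of all genes did. The 4 were Gm12250, whose synonym in RefSeq is Irgb10, an effector IRG that attacks bacterial membranes (−1.98, limma adjusted p = 0.0364), Gbp4 (−1.86, adjusted p = 0.019), and Mx2 (−1.62, adjusted p = 0.036) and Mx1 (−1.38, adjusted p = 0.021), dynamin-like GTPases that block virus replication. All 4 passed without DOX replicate 2 too, with differences of −2.35 for Gm12250, −2.11 for Gbp4, −1.63 for Mx2 and −1.52 for Mx1 (highest adjusted p of the 4, 0.000283). Gbp4 had log2 values of 4.40, 5.27 and 4.63 on the DOX arrays, against 6.74, 6.60 and 6.54 on the control arrays. None of these 4 genes passed without DOX replicate 3 or without any 1 control array (limma adjusted p of 0.0976 to 0.235), and without DOX replicate 1 only Mx2 did.

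Gm4951 is an IRG gene with log2 values of 4.42, 6.24 and 4.04 on the DOX arrays against 6.97, 6.93 and 6.92 on the control arrays. Only DOX replicate 2 came near the controls, and the difference was −2.04 with all arrays (limma adjusted p = 0.161) and −2.71 without it (adjusted p = 1.345e-07). Gbp8 (−1.16, adjusted p = 0.0855) and Gbp11 (−0.91, adjusted p = 0.205) of the chromosome 5 cluster had all DOX arrays below all control arrays, and both passed without DOX replicate 2 (−1.38 and −1.07).

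The remaining members of these families did not pass with all arrays. Gbp5, a GBP that promotes inflammasome assembly, had log2 values of 3.45, 3.96 and 3.58 on the DOX arrays against 3.60, 3.72 and 3.92 on the control arrays, low on all 6 (−0.08, limma adjusted p = 0.831, and −0.23 with adjusted p = 0.216 when DOX replicate 2 was left out). Irgc1, an IRG gene known for expression in testis (−0.01, adjusted p = 0.985), and Irgq, which lacks a working GTPase site (−0.50, adjusted p = 0.47), had overlapping groups. Neither passed when DOX replicate 2 was left out (−0.10 for Irgc1 and −0.19 for Irgq, adjusted p of 0.606 and 0.407). Gm12185, whose promoter window holds the same GAS and ISRE arrangement as those of Irgm2 and Igtp, had low values of 3.64, 4.75 and 3.59 on the DOX arrays against 3.95, 4.17 and 4.23 on the control arrays. DOX replicate 2 alone made the groups overlap (−0.13, adjusted p = 0.844), and leaving it out gave −0.51, past the threshold (adjusted p = 0.0104).

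Some of these genes were again found only on shared probe sets. The effector IRG genes Tgtp1 and Tgtp2 share 2 probe sets with differences of −3.26 (limma adjusted p = 0.0525) and −3.16 (adjusted p = 0.121), neither past the threshold with all arrays, and of −3.88 and −4.03 without DOX replicate 2. The first had log2 values of 4.45, 6.71 and 5.29 on the DOX arrays against 8.78, 8.79 and 8.68 on the control arrays. The very large GTPase gene Gvin1 was named on 3 shared probe sets. The one shared with Gm4070 alone fell by 1.36 (limma adjusted p = 0.0345), and the others, of 5 symbols each, had differences of −1.43 (adjusted p = 0.0531) and −0.30 (adjusted p = 0.602). Leaving out DOX replicate 2 gave −1.25 (adjusted p = 0.00386), −1.24 (adjusted p = 0.00545) and −0.11 (adjusted p = 0.817) in that order. The probe set of 9930111J21Rik1 and 9930111J21Rik2 did not pass with all arrays (0.69, adjusted p = 0.569) or without DOX replicate 2 (−0.078, adjusted p = 0.672).

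The genes of interferon gamma signalling were set beside the GTPases. For this and the lists that follow, the shares of all genes to read the counts against are 2.26% lower and 0.12% higher with all arrays, and 14.3% lower and 12.3% higher without DOX replicate 2. Of 12 measured of 13 listed, 1 fell and none rose with all arrays (median −0.39), and 3 (25%) fell without DOX replicate 2 (median −0.03). The one that fell was Irf1, a transcription factor that binds ISRE letters, with log2 values of 5.84, 5.61 and 5.54 on the DOX arrays against 7.45, 7.79 and 7.70 on the control arrays. All DOX arrays were at least 1.61 below the controls (−1.98, limma adjusted p = 0.00525), and the difference was −1.96 without DOX replicate 2 (adjusted p = 2.537e-06). Averaging all Irf1 probe sets gave −0.89, which did not pass (adjusted p = 0.0545). The call was also lost without control replicate 2 (adjusted p = 0.0655) or 3 (adjusted p = 0.0684).

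The receptor chains were at high levels. Ifngr1 had 8.84, 6.57 and 9.09 on the DOX arrays against 8.84, 8.88 and 8.80 on the control arrays, and only DOX replicate 2 was lower (−0.67, limma adjusted p = 0.585, and 0.13 without it). Ifngr2 had 8.88, 7.07 and 8.83 on the DOX arrays against 9.12, 9.27 and 9.17 on the control arrays. Its difference was −0.92 (adjusted p = 0.439), and leaving out DOX replicate 2 gave −0.33 (adjusted p = 0.0509). Ifng itself was below the median gene level of 5.92 on all arrays, with 4.77, 5.61 and 4.72 in DOX against 4.53, 4.63 and 4.64 in control (0.44, adjusted p = 0.472).

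Type I and III interferon signalling had 16 of 17 listed genes measured, of which 3 fell and none rose with all arrays (median −0.61), and 7 fell and 1 rose without DOX replicate 2. The 3 were Irf7 (−3.74, limma adjusted p = 0.00361), which drives type I interferon genes, Usp18 (−2.35, adjusted p = 0.0107), which damps the receptor, and Irf9 (−1.54, adjusted p = 0.0217), the DNA-binding part of the ISRE complex. Its partner Stat2 had a difference of −1.07 that did not pass with all arrays (adjusted p = 0.0826) and −0.91 that passed without DOX replicate 2 (adjusted p = 0.000819). Without that array Irf7 had −3.77, Usp18 −2.61 and Irf9 −1.39, and all 3 passed (highest adjusted p of the 3, 3.507e-05). Without any 1 control array Usp18 and Irf9 no longer passed in limma (adjusted p of 0.082 to 0.171), nor did Irf9 without DOX replicate 3 (0.111), while Irf7 did.

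Among 20 other genes that interferon gamma induces, 3 fell and none rose with all arrays, but the median was 0.03, and 9 fell and 2 rose without DOX replicate 2 (median −0.16). The 3 were the immunoproteasome subunits Psmb8 (−2.36, limma adjusted p = 0.00377) and Psmb10 (−1.18, adjusted p = 0.0229) and the peptide transporter Tap1 (−1.55, adjusted p = 0.0294). All 3 passed without DOX replicate 2, with −2.52 for Psmb8, −1.24 for Psmb10 and −1.39 for Tap1 (highest adjusted p of the 3, 9.483e-05). The 2 that rose without that array were Wars (1.53, limma adjusted p = 5.914e-06) and Nlrc5 (0.39, adjusted p = 0.0344). With all arrays they had 0.76 (adjusted p = 0.535) and 0.96 (adjusted p = 0.417). Psmb10 and Tap1 did not pass without any 1 control array or without DOX replicate 3 (adjusted p of 0.129 to 0.2), Psmb10 also not without DOX replicate 1 (0.0719), and Psmb8 not without control replicate 2 (0.0503) or 3 (0.0511). Of the 20 listed antiviral interferon stimulated genes 18 were measured and 8 fell (median −1.41), with Ifit3 (−2.92), Oasl2 (−2.63), Ifit1 (−2.61) and Rsad2 (−2.21) the 4 with the largest falls among those past the threshold (highest adjusted p of the 4, 0.0368), and 16 fell without DOX replicate 2. Those 4 then had −3.11, −2.81, −2.40 and −2.38 in the same order. Ifitm3 had a larger difference (−3.27) that did not pass with all arrays (adjusted p = 0.213) and passed without DOX replicate 2 (−2.0, adjusted p = 6.381e-07). Ifit3 passed with any 1 array left out, whereas Ifit1, Oasl2 and Rsad2 did not without any 1 control array (limma adjusted p of 0.0533 to 0.221), nor Ifit1 without DOX replicate 3 (0.0737), nor Rsad2 without DOX replicate 1 (0.055).

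Proteins that guide the GTPases to vacuoles, the ATG8 conjugation machinery and its ubiquitin partners, were measured for all 16 listed genes, and none passed with all arrays (median −0.20). Without DOX replicate 2, 2 (12.5%) fell, about the share of all genes, and 5 rose (median 0.18), where 12.3% of all genes rose. The 2 with the smallest p, Gabarapl1 (0.72, limma adjusted p = 0.263) and the ubiquitin receptor Sqstm1 (0.81, adjusted p = 0.29), were above 0 and passed without DOX replicate 2 (0.86 with adjusted p = 0.00304, and 1.10 with adjusted p = 0.000116). None of 8 inflammasome genes passed with all arrays either (median 0.19), and 1 rose without DOX replicate 2, again about the share of all genes. The smallest p belonged to Aim2 (0.52, adjusted p = 0.425) and Pycard (0.39, adjusted p = 0.484), and neither passed without DOX replicate 2 (0.28 and 0.13).

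**Figure D5:**
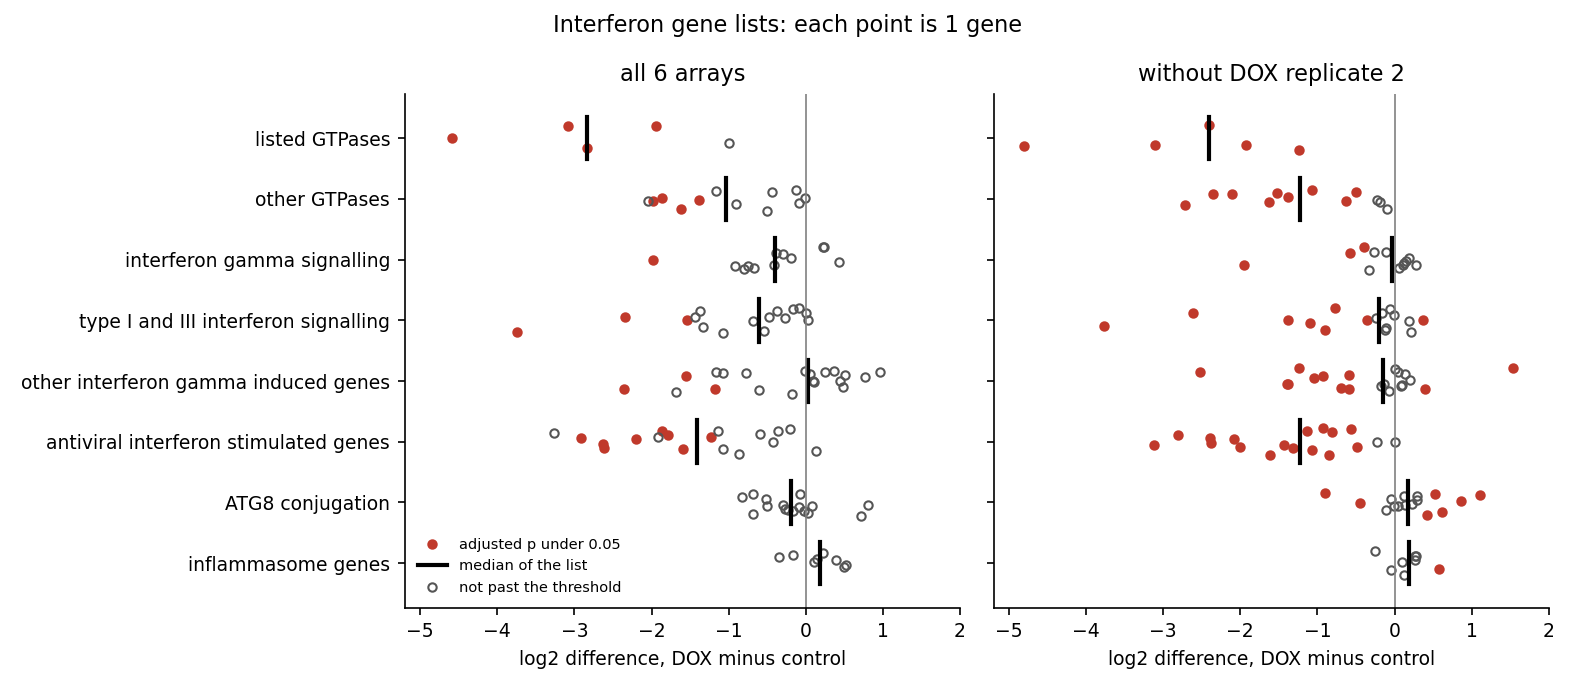
Log2 difference, DOX minus control, of each measured gene in 8 lists, for all 6 arrays (left) and without DOX replicate 2 (right). Filled red points passed at an adjusted p under 0.05 and black bars are list medians. The 5 listed GTPases have the lowest median (−2.84 with all arrays), the antiviral genes −1.41 and the other GTPases −1.04, while the ATG8 and inflammasome lists have medians of −0.20 and 0.19.

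Macrophages and lymphocytes also make these GTPases, so their markers were read. Of 14 listed markers 13 were measured, and 10 of the 13 were below the median gene level of 5.92 on every array. Their summed linear level was 624 to 664 on the DOX arrays and 445 to 463 on the control arrays, and no marker passed with all arrays, while 3 of 13 (Cd68, Ptprc and Nkg7) rose without DOX replicate 2, where 12.3% of all genes did. Cd68, a lysosomal protein of macrophages that other cells also make, was the marker with the highest level, with 8.32, 6.72 and 8.29 on the DOX arrays against 7.25, 7.19 and 7.43 on the control arrays. It made up much of the sum, which without Cd68 was 304 to 558 on the DOX arrays and 291 to 308 on the control arrays, so that the groups then overlapped. The mean log2 level without Cd68 was 4.52 to 5.32 on the DOX arrays and 4.48 to 4.52 on the control arrays. Leaving out DOX replicate 2 brought the DOX range to 4.52 to 4.72. The summed level of 12 endothelial, fibroblast and adipocyte markers was 338 to 614 on the DOX arrays and 354 to 376 on the control arrays, with none past the test. Their mean log2 level was 4.56 to 5.38 on the DOX arrays, or 4.56 to 4.72 without DOX replicate 2, against 4.59 to 4.66 in control. The summed level of 6 epithelial markers was 7817 to 11840 on the DOX arrays and 16730 to 17120 on the control arrays. None of the 6 passed with all arrays, and 3 (Krt8, Krt18 and Krt14) fell without DOX replicate 2, where 14.3% of all genes did. The leukocyte and the epithelial sums differed between the labels without overlap, the DOX range of the endothelial, fibroblast and adipocyte sum enclosed the control range, and the part of any of them in the fall of the GTPases was not tested. A sum adds probe sets that are not on a common scale, so the brightest weigh most. No marker was at 0, since values on this scale have no true zero.

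The mean of the 5 genes with their own probe set was 5.93, 5.76 and 5.57 on the DOX arrays, against 8.40, 8.49 and 8.45 on the control arrays. Among 7246 genes with an SD of at least 0.5 over the 6 arrays, the 8 named genes whose values correlated best with this mean were Tpx2, Slfn8, Slc5a9, Mastl, Herc6, Tacc3, Racgap1 and Cenpf, with Pearson's r of 0.998 to 0.999 over 6 arrays. Slfn8 and Herc6 are known interferon-responsive genes, while Tpx2, Mastl, Tacc3, Racgap1 and Cenpf act in mitosis and Slc5a9 is a sugar transporter. Tpx2 had 5.39, 5.23 and 5.13 on the DOX arrays against 8.43, 8.60 and 8.45 on the control arrays. With 2 tight groups of arrays, these correlations mostly reflect the difference between DOX and control and are given as a description.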

How the data were processed

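The values are log2 expression from 1-colour Affymetrix arrays as deposited by the authors. The submitters' processing notes name RMA, which background-corrects, quantile-normalizes and summarises probes, and the affy package, while those sources state no annotation build. RMA values have no read depth, and the number of arrays limits precision. The labels give 3 biological replicates per group but not whether they are separate mice, so p-values measure the spread between these arrays.

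Of 34760 probe sets, 21640 had exactly 1 gene symbol, 1321 several and 11799 none. For each of 19937 genes the single-symbol probe set with the highest mean entered a two-sided limma fit without covariates (functions lmFit and eBayes, package version 3.58.1, R version 4.3.3), with Benjamini-Hochberg adjustment over all genes and a threshold of 0.05. Probe sets of several symbols were tested in a fit of all probe sets. Both fits were repeated without DOX replicate 2. The gene fit, but not the fit of all probe sets, was tested on simulated data, which had an equal variance for all genes and no compressed array. With 3 arrays against 3, an exact permutation test of 1 gene cannot go below 0.1, so none is given.

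Members and lists were chosen with earlier results of these data known. Named are all members, Erbb3, all measured genes of the other GTPase list, Ifngr1, Ifngr2, Stat2, Irf1 and Irf9, from each further list up to 4 genes past the threshold with the largest difference (or the 2 with the smallest p), and the 8 genes most like the members. Ifng, Ifitm3, Wars, Nlrc5, Cd68, other markers and genes of shared probe sets were added. Promoter windows are RefSeq's, and all 9 symbols matched its gene table. Alternatives covered left-out arrays, a replicate block, filters, normalization, probe choice, variance settings, array weights and thresholds.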

Additional observations from a re-analysis of the deposited data

How the results depend on the processing

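The lower direction of the 5 listed genes held under all 19 alternatives and that of the 3 shared probe sets under all 18 run on them. For most alternatives this could not have come out otherwise, because every DOX array lay below every control array on these probe sets. Only the changed normalizations could have turned a direction. None of the 5 genes rose under any of the 19. Iigp1 passed in all 17 that kept the 0.05 threshold, Gbp3 in 14, Gbp7 in 13, Irgm1 in 9 and Gbp9 in 5. Of 5 listed genes 4 fell with all arrays, 1 to 5 with 1 array left out and 2 with the replicate block. The shared probe sets that fell numbered 2, against 0 to 3 with 1 array left out and 0 with the block.

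Over all genes 450 fell and 24 rose. With 1 array left out, 61 to 2855 fell and 2 to 2454 rose, the most without DOX replicate 2. The replicate block gave 159 and 3, the block on replicates 1 and 3 alone 2320 and 1841, cyclic loess 1197 and 557, and array weights 3752 and 3643. A second quantile normalization over the 5 arrays other than DOX replicate 2, chosen after seeing the data, gave 3408 and 2360. A threshold of 0.01 gave 165 and 3, and one of 0.1 gave 73 higher. The second quantile normalization of all arrays gave 185 higher and centring on array medians 7. The share of calls that were higher was 5.06% as reported, 22.8% with second quantile normalization, 31.8% with cyclic loess and 46.2% without DOX replicate 2. Centring moved the median of all genes by −0.20 and second quantile normalization by −0.11. Relative to the median, the listed genes lay between −4.61 and −1.02 with centring and between −4.53 and −0.69 with second quantile normalization. The range with centring could not differ from that of the reported fit, since centring shifts all genes of an array alike.

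Irgm1 lost its call without DOX replicate 1 (−3.47, limma adjusted p = 0.0666), without DOX replicate 3, without any 1 control array, with second quantile normalization (adjusted p = 0.0686), with centring (adjusted p = 0.0839) and with the block (adjusted p = 0.0883). Gbp3 and Gbp7, and the probe sets of Gbp2 and of Irgm2 with Igtp, each lost theirs without any 1 control array, with adjusted p of 0.0533 to 0.0896. Ifngr1 was higher in DOX with the block on replicates 1 and 3 (0.15), with array weights (0.19) and with the added normalization (0.083), and ranged from −1.14 to 0.13 with 1 array left out. Erbb3 was −0.10 with centring and −0.16 to 0.37 with 1 array left out. The same ranges were −0.51 to 0.078 for Gm12185, −0.10 to 0.088 for Irgc1 and −0.23 to 0.023 for Gbp5. The cause of these changes was not tested.

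Arrays of the same number deviated from their group means together at correlations of 0.117, 0.194 and 0.085. With DOX replicate 2 so far apart, DOX replicates 1 and 3 deviated almost alike (0.117 and 0.116 with control replicate 1). These correlations therefore cannot tell whether equal numbers mark a pair, and the replicate block is given only as an alternative fit. DOX replicate 3 correlated best with control replicate 1 rather than its own number. The number of arrays, the compressed values of DOX replicate 2 and probe sets shared between paralogs limit these results.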
